A study of Homo sapiens with 12 samples.

Results

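Total RNA was compared between 3 libraries of MD901 cells labelled with the hairpin shCREBBP.572 and 3 libraries of MD901 cells with a scramble hairpin, which are 6 of the 12 libraries in the deposited table. MD901 is an established human lymphoma line, of the germinal centre subtype of diffuse large B-cell lymphoma, and the series' design text gives its CREBBP gene as wild type. All results therefore concern 1 cell line. The other 6 libraries carried shCREBBP.1027 or shCREBBP.3753, with 3 libraries each, and are compared with shCREBBP.572 to show where it differed from them. They also entered the filter on low rows and the estimate of spread behind each call against scramble. All cells grew in IMDM with 10% serum and each group carried 1 short hairpin RNA, so the groups differ in the hairpin as far as the labels tell. The sequences of the hairpins, the way in which they were introduced and the time after their introduction were not stated in the labels. The labels do not say whether replicates were separate cultures, so the p-values cover the spread among these libraries alone, and that spread may be technical.

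CREBBP is an acetyltransferase that acts on histone tails and on other proteins, and it is recruited to enhancers by many transcription factors. EP300 is its closest relative. In germinal centre B cells CREBBP is known for acetylating enhancers that the repressor BCL6 holds silent, among them enhancers of antigen presentation and of B-cell receptor signalling, and the gene is often mutated in lymphomas of this type. The comparison asked which RNAs differed between cells with shCREBBP.572 and cells with scramble.

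Levels are given as FPKM, that is, fragments per length of transcript and per number of mapped fragments, and differences are shCREBBP.572 minus scramble on the scale of log2(FPKM + 1), which understates changes at low values. Of 24181 rows, each an assembled locus, 11757 had a mean of at least 1 FPKM over the 12 libraries and were tested. A row is called when its limma p-value, adjusted over all these rows, is under 0.05. The upper quartile of the libraries ranged over 9.82 to 10.9 FPKM, and the number of reads is unknown. Scramble replicate 1 stood apart, with the lowest mean Spearman correlation to its group (0.942, against 0.972 to 0.976 in the shCREBBP.572 libraries) and an array weight of 0.136, so counts are also given without it. In scramble replicate 3, 6 rows held 203523 to 894692 FPKM and were listed at 0 elsewhere. Intervals are those of the assembled loci on hg19, counted from 1.

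CREBBP RNA was not called lower in the libraries labelled shCREBBP.572. The CREBBP row (chromosome 16, 3775056 to 3930121) held 7.99, 7.53 and 6.91 FPKM with shCREBBP.572, against 13.7, 7.10 and 5.82 FPKM with scramble. The groups overlapped, with the highest and the lowest value both among the scramble libraries. The difference was -0.14 ± 0.21 (SE; limma adjusted p = 0.697), and it was 0.19 without scramble replicate 1 (limma adjusted p = 0.171). CREBBP was not called against the same scramble libraries with the other hairpins either. It averaged 11.9 FPKM with shCREBBP.1027 (0.47, limma adjusted p = 0.104) and 6.06 FPKM with shCREBBP.3753 (-0.40, limma adjusted p = 0.177). The row that EP300 shares with MIR1281 (chromosome 22, 41488465 to 41576128) held 16.3, 16.5 and 13.5 FPKM with shCREBBP.572, against 24.6, 10.7 and 8.49 FPKM with scramble, again with scramble replicate 1 the highest. Its difference was 0.21 ± 0.29 (limma adjusted p = 0.663), and without scramble replicate 1 it was 0.64 and called (limma adjusted p = 0.012). The label of the libraries is therefore not borne out by the RNA of the targeted gene, and each direction given here is that of the libraries labelled shCREBBP.572. CREBBP protein was not measured in these files.

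With shCREBBP.572, 1057 rows were higher and 1266 lower, of which 58 and 180 differed by at least 1 on the log2 scale. These are 8.99% and 10.8% of the rows tested, and the median difference of all rows was 0.01. Without scramble replicate 1 the counts were 1140 higher and 1845 lower. Without shCREBBP.572 replicate 1, 679 rows were higher, and without its replicate 3, 692. Libraries of shCREBBP.1027 and shCREBBP.3753, which share the estimate of spread, were the most alike. Their mean Spearman correlation within a group was 0.98 to 0.985, against 0.942 to 0.959 in scramble. A fit to the 6 shCREBBP.572 and scramble libraries alone, which has fewer libraries to estimate the spread, called 345 rows higher and 620 lower. Of the genes given below that were named by rule, it ended 13 calls that were kept whichever library was left out. These were the calls of ALDH1L2, ATG16L1, DNAJB9, EZH2, FKBP4, GPAM, HRK, LDHA, PTGER4, SYVN1, TNFAIP3, TPM4 and UBE2C. Genes chosen after inspection of their values, or for a promoter match alone, are not covered by this list. The larger changes were mostly falls, and several of the genes that fell most belong to B cells. The genes named first are the 15 largest changes in each direction among called rows with 1 gene name that were above 0 in all 6 libraries. Most named genes were chosen by their differences in these libraries, so groups that do not overlap describe them and are no further test. With 3 libraries against 3, a two-sided exact permutation test of a single gene cannot go below p = 0.1.

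The first of them was VPREB1, part of the surrogate light chain of the pre-B-cell receptor (chromosome 22, 22599200 to 22599926), at 1.43, 0.749 and 0.565 FPKM with shCREBBP.572, against 13.9, 14.1 and 17.9 FPKM with scramble. It fell by 3.11 ± 0.17 on the log2 scale (SE; limma adjusted p = 9.1e-07). PTPRCAP, a partner of the phosphatase CD45 (chromosome 11, 67202981 to 67205153), held 0.850, 0.739 and 0.967 FPKM with shCREBBP.572, against 9.89, 10.7 and 13.1 FPKM with scramble (-2.72 ± 0.16, limma adjusted p = 1.5e-06). In both genes all shCREBBP.572 libraries lay far below all scramble libraries. SLC2A5, the fructose transporter GLUT5 (chromosome 1, 9097004 to 9129887), was at 2.89, 2.29 and 3.88 FPKM with shCREBBP.572, against 17.6, 25.1 and 25.7 FPKM with scramble (-2.57 ± 0.15, limma adjusted p = 1.8e-06). RGS1, which shortens chemokine receptor signals in lymphocytes (chromosome 1, 192544857 to 192549159), was at 1.33, 0.899 and 2.94 FPKM with shCREBBP.572, against 10.1, 13.1 and 13.5 FPKM with scramble (-2.34 ± 0.22, limma adjusted p = 3.7e-05). RGS1 was highest in replicate 3 of shCREBBP.572, which was still below each scramble library. FCRLA, an Fc receptor-like protein of germinal centre B cells (chromosome 1, 161676762 to 161684319), held 6.06, 5.67 and 4.83 FPKM with shCREBBP.572, against 28.0, 34.3 and 32.8 FPKM with scramble (-2.33 ± 0.10, limma adjusted p = 2.8e-07). MS4A1 encodes CD20, the surface antigen of mature B cells (chromosome 11, 60223282 to 60238225), and held 0.801, 0.591 and 0.854 FPKM with shCREBBP.572, against 5.26, 6.74 and 7.24 FPKM with scramble (-2.08 ± 0.13, limma adjusted p = 2.4e-06). Neither gene's groups overlapped. In bulk RNA, fewer cells that express a gene and less RNA per cell cannot be told apart.

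The other 9 of these 15 falls lay between -2.23 for PYHIN1 and -1.88 for TWF1. PYHIN1 (chromosome 1, 158850650 to 158946849), a member of an interferon-inducible family of nuclear proteins, was at 3.34, 5.95 and 7.18 FPKM with shCREBBP.572, against 21.0, 32.7 and 33.2 FPKM with scramble. SPIB, a B-cell member of the Ets family of transcription factors (chromosome 19, 50922195 to 50934309), held 4.67, 4.36 and 5.08 FPKM with shCREBBP.572, against 20.0, 22.2 and 24.4 FPKM with scramble. FAM129C, a gene expressed in B cells, was at 12.3 ± 1.11 FPKM with shCREBBP.572 and 53.8 ± 3.67 FPKM with scramble (SD, n = 3 each). All 3 genes separated the groups without overlap. FLT1, a receptor for vascular endothelial growth factor, was at 1.49 ± 0.148 FPKM with shCREBBP.572 and 9.24 ± 1.19 FPKM with scramble. IL32, a cytokine of lymphocytes, was at 0.793, 0.170 and 0.385 FPKM with shCREBBP.572, against 3.27, 6.26 and 4.32 FPKM with scramble. The remaining falls were those of DPEP1, a membrane dipeptidase (-2.04 ± 0.24), COL9A3, a chain of collagen IX (-1.96 ± 0.11), SELT, a selenoprotein of the endoplasmic reticulum (-1.91 ± 0.11), and TWF1, the actin-monomer binder twinfilin (-1.88 ± 0.14). All 15 calls were kept when any 1 of the 6 libraries was left out.

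The rises of this set were smaller. CTTN encodes cortactin, which binds branched actin filaments. Its locus (chromosome 11, 70244612 to 70282690) stood at 3.48, 2.75 and 3.62 FPKM with shCREBBP.572, against 0.232, 0.200 and 0.239 FPKM with scramble, a difference of 1.8 ± 0.15 (limma adjusted p = 2.0e-05). RIMS3, which regulates vesicle release at synapses (chromosome 1, 41086107 to 41131324), was at 77.8, 75.3 and 75.8 FPKM with shCREBBP.572, against 24.1, 25.4 and 25.4 FPKM with scramble (1.58 ± 0.06, limma adjusted p = 1.2e-07). CTTN was near 0.2 FPKM in scramble, whereas RIMS3 was well expressed in both groups and its libraries lay within a narrow range in each. BTG2, an antiproliferative gene that p53 induces (chromosome 1, 203274542 to 203279919), was at 64.9, 59.2 and 63.8 FPKM with shCREBBP.572, against 22.7, 23.5 and 25.6 FPKM with scramble (1.35 ± 0.07, limma adjusted p = 7.9e-07). TSHR, the thyrotropin receptor (chromosome 14, 80962821 to 81612646), was at 22.3, 23.1 and 23.8 FPKM with shCREBBP.572, against 10.4, 9.33 and 7.77 FPKM with scramble (1.25 ± 0.13, limma adjusted p = 8.3e-05). RAB39B, a GTPase of vesicle traffic (chromosome X, 154487519 to 154493874), was at 13.8, 14.2 and 14.2 FPKM with shCREBBP.572, against 3.40, 5.53 and 6.27 FPKM with scramble (1.34 ± 0.15, limma adjusted p = 1.2e-04). The groups of these genes did not overlap, and their calls were kept whichever library was left out.

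The paralogs CCDC74A and CCDC74B, on chromosome 2, both rose, by 1.40 ± 0.15 and 1.30 ± 0.22. CCDC74A was at 29.9 ± 4.77 FPKM with shCREBBP.572 and 10.6 ± 0.891 FPKM with scramble and CCDC74B at 3.19 ± 0.342 FPKM with shCREBBP.572 and 0.706 ± 0.255 FPKM with scramble (SD, n = 3 each), and reads of these near-identical genes may have been divided between the rows. Further rises were those of SAMD15 (1.42 ± 0.13), the microtubule minus-end protein CAMSAP2 (1.22 ± 0.10), CHN1, which encodes the Rac-regulating protein chimaerin (1.22 ± 0.16), TMEM45A (1.22 ± 0.22), DPCD (1.20 ± 0.21) and BCHE, the serum esterase butyrylcholinesterase (1.20 ± 0.15). The pseudogene ZNF826P (1.30 ± 0.39) and the olfactory receptor gene OR2D3 (1.19 ± 0.36) completed these 15 rises. This pair was called in only 2 of the 6 fits that left out a library, with adjusted p up to 0.138 without scramble replicate 3 and up to 0.139 without shCREBBP.572 replicate 3.

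**Figure D1:**
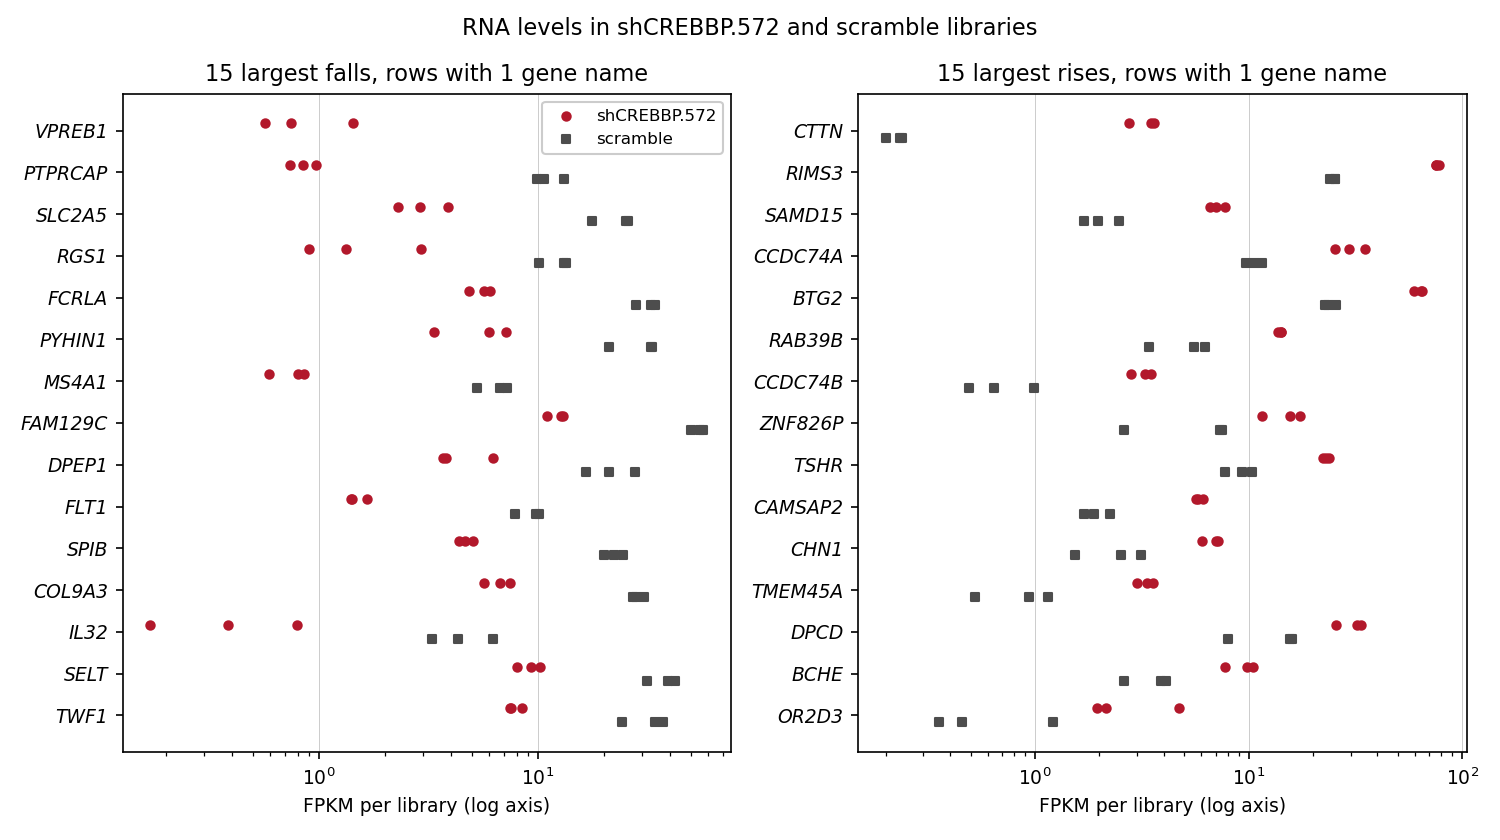
Level in each library (FPKM, log axis) of the 15 largest falls (left) and the 15 largest rises (right) among rows with 1 gene name and no value of 0; circles are the 3 shCREBBP.572 libraries and squares the 3 scramble libraries. In each of the 30 genes the groups do not overlap, and the falls reach further than the rises, with VPREB1 at -3.11 and CTTN at 1.8 on the log2 scale. The genes were chosen by these differences, so the lack of overlap is no further test.

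Of the gene lists, MHC class II, cholesterol synthesis, MHC class I, B-cell markers, the folding machinery of the endoplasmic reticulum and plasma cell differentiation had the largest shares of fallen members. The list of ATF4 targets had the largest share of risen members. The counts over all rows, 10.8% lower and 8.99% higher, are the background for each list in the main fit. For list counts without scramble replicate 1 the background is larger, 1845 rows lower and 1140 higher of the same 11757. A list's count and median describe its members only, and no test of a list was made.

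**Figure D2:**
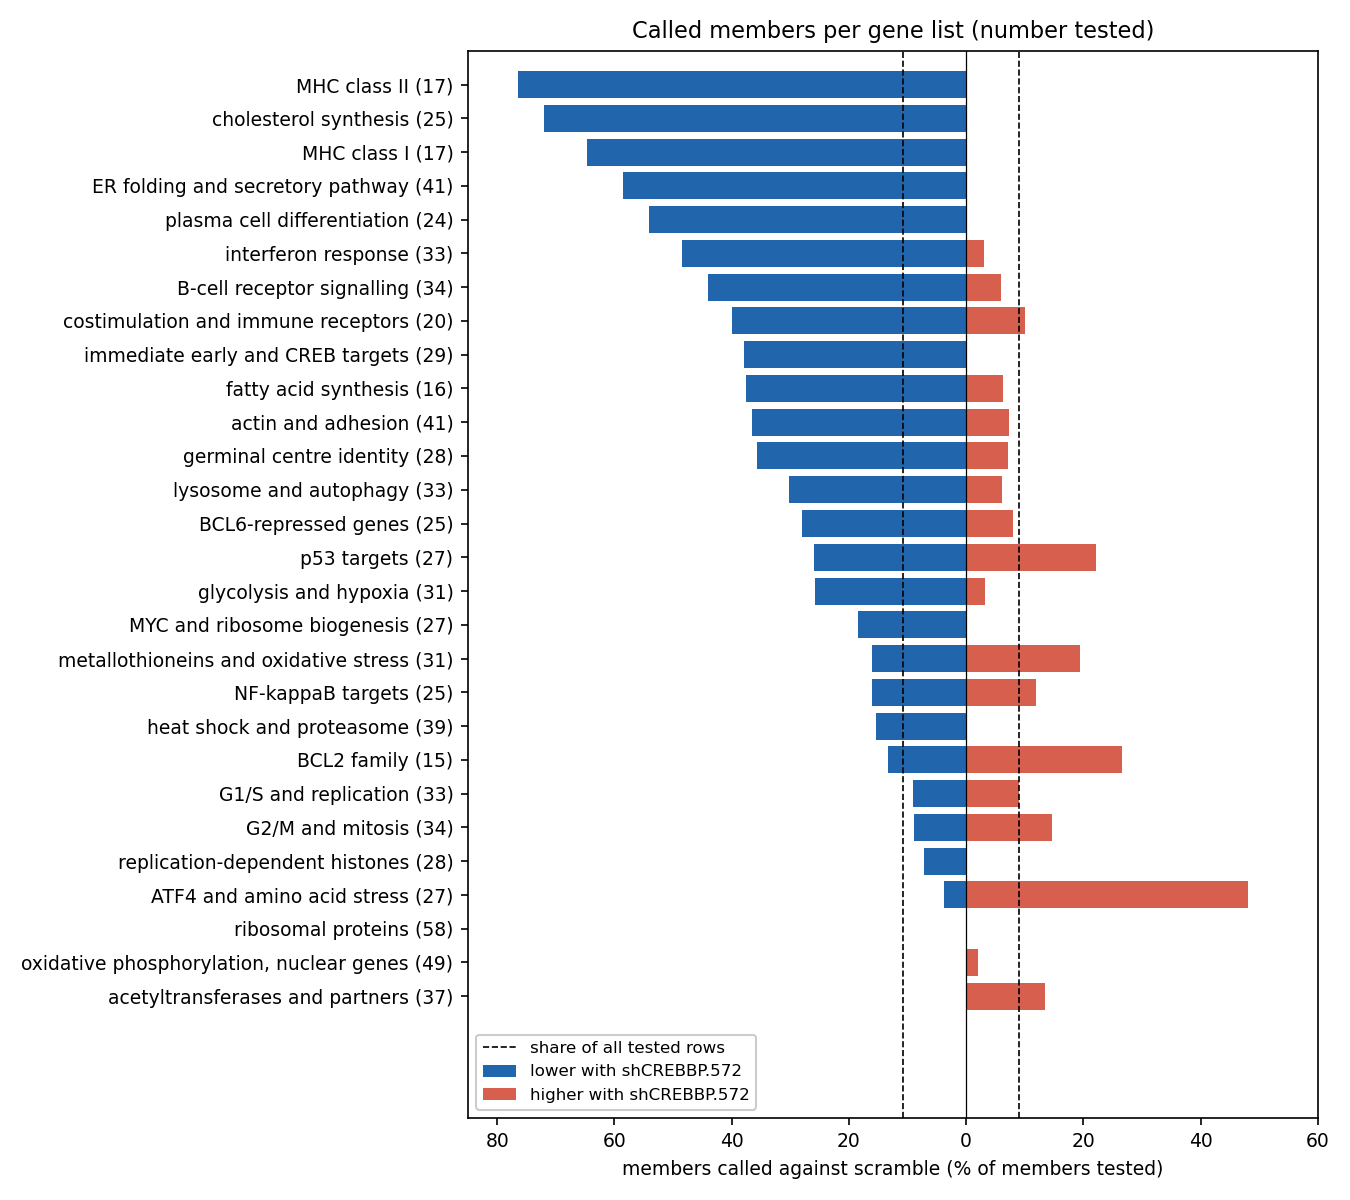
Share of tested members called lower (bars to the left) and higher (bars to the right) with shCREBBP.572 than with scramble, for 28 gene lists with the number of members tested in brackets; dashed lines mark the shares over all tested rows, 10.8% lower and 8.99% higher. MHC class II (13 of 17 lower) and cholesterol synthesis (18 of 25 lower) reach furthest to the left, and ATF4 and amino acid stress (13 of 27 higher) furthest to the right.

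A good part of the genes of B-cell identity and of B-cell receptor signalling fell with shCREBBP.572. Of 28 tested germinal centre genes, 10 fell and 2 rose, with a median of -0.35 (11, 2 and -0.16 without scramble replicate 1). Of 34 genes of B-cell receptor signalling, 15 fell and 2 rose (median -0.35), and without scramble replicate 1 these counts were 17 and 3. SPI1, the Ets factor PU.1 that works beside SPIB (chromosome 11, 47376409 to 47400127), was at 5.37, 5.31 and 5.48 FPKM with shCREBBP.572, against 19.5, 14.9 and 16.1 FPKM with scramble (-1.47 ± 0.11, limma adjusted p = 8.0e-06). VPREB3, a chaperone of immunoglobulin assembly (chromosome 22, 24094930 to 24096630), was at 0, 0.841 and 2.03 FPKM with shCREBBP.572, against 6.08, 9.10 and 10.8 FPKM with scramble, the 0 being as listed (-2.42 ± 0.33, limma adjusted p = 5.0e-04). BLNK, the adaptor that links the receptor's kinases to calcium signalling (chromosome 10, 97949942 to 98031534), was at 9.08, 9.94 and 10.3 FPKM with shCREBBP.572, against 22.8, 28.9 and 35.2 FPKM with scramble (-1.46 ± 0.14, limma adjusted p = 4.7e-05). For these genes no shCREBBP.572 library reached the lowest scramble library. In addition, and named after inspection of the values, the receptor-proximal kinase LYN held 6.53, 7.23 and 6.47 FPKM with shCREBBP.572, against 18.6, 19.8 and 19.9 FPKM with scramble (-1.40 ± 0.07, limma adjusted p = 4.7e-07).

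Other members of these lists moved the opposite way or were not called. PTPRC, the phosphatase CD45 that PTPRCAP binds (chromosome 1, 198608022 to 198726983), rose and was at 31.5, 30.4 and 31.6 FPKM with shCREBBP.572, against 12.9, 16.1 and 17.1 FPKM with scramble (0.98 ± 0.10, limma adjusted p = 5.4e-05). FYN, a Src-family kinase more used by T cells (chromosome 6, 111981535 to 112194668), rose by 0.80 ± 0.13 (limma adjusted p = 0.00177), and MYBL1, a Myb factor of germinal centre B cells (chromosome 8, 67474410 to 67525480), by 0.72 ± 0.16 (limma adjusted p = 0.0105). EZH2, the methyltransferase of the Polycomb repressive complex (chromosome 7, 148504426 to 148581441), rose by 0.35 ± 0.09 (limma adjusted p = 0.0141). The transcription factors BCL6 and PAX5, named after inspection of their values, were not called, unlike SPIB and SPI1. BCL6 was at 107, 100 and 110 FPKM with shCREBBP.572, against 95.5, 105 and 105 FPKM with scramble (0.05 ± 0.07, limma adjusted p = 0.673). PAX5 was at 21.3, 23.6 and 22.0 FPKM with shCREBBP.572, against 32.6, 23.5 and 22.6 FPKM with scramble (-0.21 ± 0.12, limma adjusted p = 0.253). Both overlapped between the groups.

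**Figure D3:**
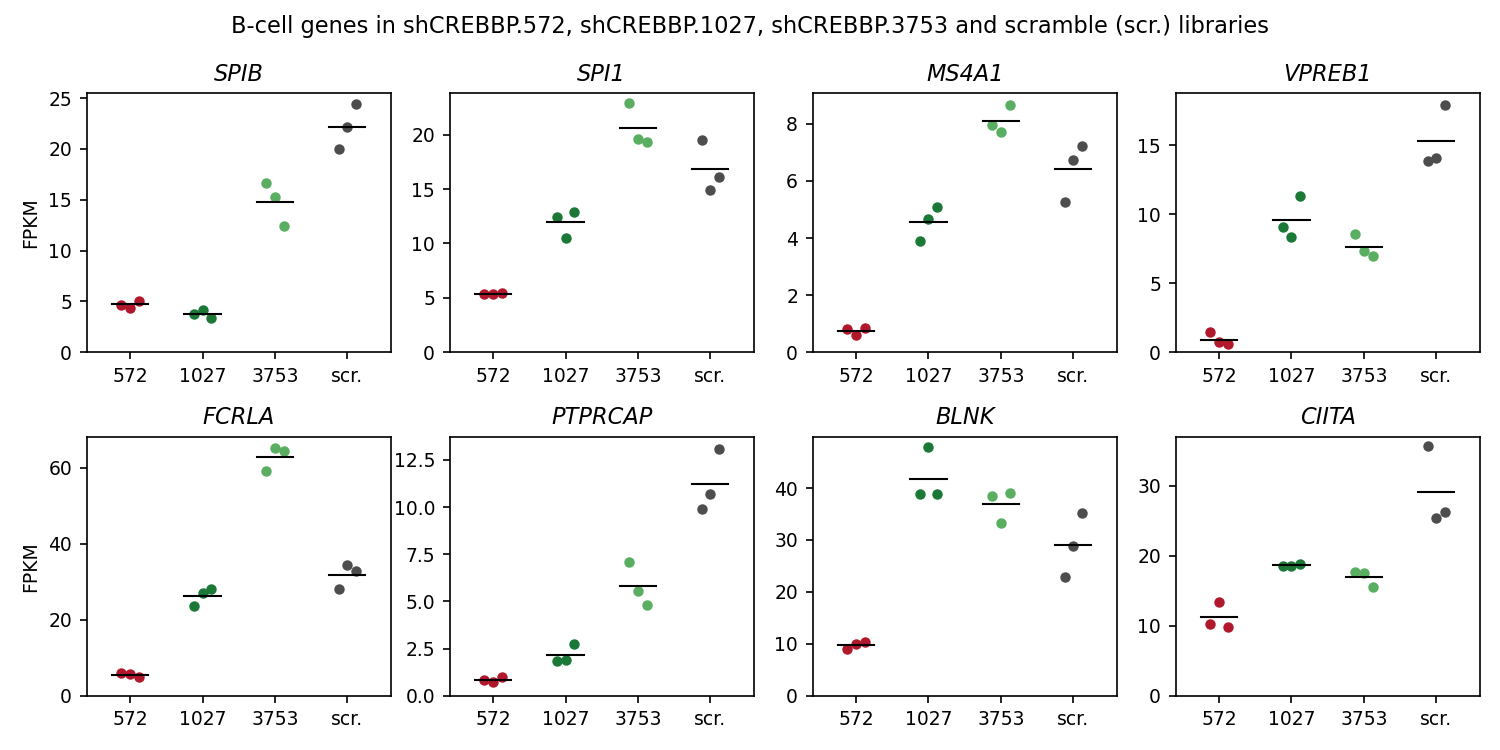
Level (FPKM, axis from 0) of 8 B-cell genes in the 3 libraries of each group, from left shCREBBP.572, shCREBBP.1027, shCREBBP.3753 and scramble (scr.); points are libraries and bars are group means. In all 8 genes each shCREBBP.572 library lies below each scramble library, and in 7 of them, all but SPIB, also below each library of the other hairpins.

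Most antigen presentation genes fell. MHC class II molecules show peptides to CD4 T cells under control of the activator CIITA, and 13 of the 17 tested members of that list fell and none rose (median -0.63; 15 lower and 1 higher without scramble replicate 1). CIITA itself (chromosome 16, 10971055 to 11020472) was at 10.3, 13.4 and 9.88 FPKM with shCREBBP.572, against 35.7, 25.4 and 26.3 FPKM with scramble (-1.30 ± 0.13, limma adjusted p = 6.9e-05). HLA-DMA and HLA-DMB encode the chains that exchange peptides in the class II groove. HLA-DMA (chromosome 6, 32916391 to 32920899) was at 28.0, 25.8 and 27.0 FPKM with shCREBBP.572, against 55.2, 61.8 and 75.3 FPKM with scramble (-1.21 ± 0.11, limma adjusted p = 2.9e-05). HLA-DMB (chromosome 6, 32902205 to 32908893) was at 8.64, 10.5 and 10.5 FPKM with shCREBBP.572, against 16.9, 21.9 and 28.8 FPKM with scramble (-1.09 ± 0.16, limma adjusted p = 6.6e-04). In all 3 genes the groups were apart. Chosen after its values were seen, the invariant chain CD74 was at 569, 581 and 553 FPKM with shCREBBP.572, against 857, 1108 and 1168 FPKM with scramble (-0.87 ± 0.11, limma adjusted p = 3.2e-04).

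MHC class I, which shows peptides to CD8 T cells, had 11 of 17 members lower and none higher (median -0.47). That count was 12 without scramble replicate 1, 7 without shCREBBP.572 replicate 1, and 6 without shCREBBP.572 replicate 3 or scramble replicate 3. TAP2, a subunit of the peptide transporter into the endoplasmic reticulum (chromosome 6, 32788945 to 32806600), was at 7.80, 7.0 and 5.70 FPKM with shCREBBP.572, against 14.6, 14.4 and 16.6 FPKM with scramble (-1.06 ± 0.10, limma adjusted p = 5.1e-05). The row shared by HLA-B and HLA-C (chromosome 6, 31236526 to 31324989) was at 206, 196 and 191 FPKM with shCREBBP.572, against 350, 386 and 409 FPKM with scramble (-0.94 ± 0.08, limma adjusted p = 1.3e-05). PSMB9, a subunit of the immunoproteasome (chromosome 6, 32821922 to 32829073), was at 31.2, 27.8 and 30.1 FPKM with shCREBBP.572, against 48.0, 60.4 and 57.1 FPKM with scramble (-0.87 ± 0.10, limma adjusted p = 1.1e-04). No library of one group entered the range of the other in these rows. Reads of the polymorphic HLA paralogs may be divided between rows. In the list of costimulation and immune receptors 8 of 20 members fell and 2 rose (median -0.52), with the same counts without scramble replicate 1. CD48, a ligand of 2B4 (chromosome 1, 160648536 to 160681641), was at 18.7, 19.2 and 23.5 FPKM with shCREBBP.572, against 46.4, 79.4 and 91.3 FPKM with scramble (-1.73 ± 0.22, limma adjusted p = 3.1e-04). PVRIG, an inhibitory receptor (chromosome 7, 99775347 to 99869855), was at 1.79, 4.13 and 1.93 FPKM with shCREBBP.572, against 16.8, 16.1 and 21.1 FPKM with scramble (-2.44 ± 0.20, limma adjusted p = 1.8e-05) in 1 of its 4 rows, none of the others being called. ITGB2, the common chain of leukocyte integrins, fell by 1.27 ± 0.15, whereas IL21R, the receptor of interleukin 21, rose by 0.77 ± 0.16 and ICAM3, an adhesion molecule, by 0.63 ± 0.12.

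Many interferon response genes fell with shCREBBP.572: 16 of 33 tested members fell and 1 rose, with a median of -0.49 (17 and 0 without scramble replicate 1). Interferons act through a complex of transcription factors that includes IRF9 and binds a repeated GAAA element in the promoters of its targets. IFITM1, which blocks entry of viruses (chromosome 11, 313630 to 315332), was at 18.2, 27.3 and 18.4 FPKM with shCREBBP.572, against 44.5, 50.2 and 55.0 FPKM with scramble (-1.21 ± 0.16, limma adjusted p = 3.7e-04). BST2, the tetherin that holds virions at the membrane (chromosome 19, 17513748 to 17516457), was at 2.60, 2.59 and 3.58 FPKM with shCREBBP.572, against 6.39, 8.76 and 7.70 FPKM with scramble (-1.14 ± 0.13, limma adjusted p = 1.6e-04). OAS2, an antiviral enzyme that makes oligoadenylates (chromosome 12, 113416242 to 113449597), was at 5.08, 5.73 and 7.20 FPKM with shCREBBP.572, against 15.8, 13.1 and 13.7 FPKM with scramble (-1.13 ± 0.12, limma adjusted p = 1.1e-04). These 3 genes separated the groups. IFI35 was the member that rose (0.48 ± 0.15, limma adjusted p = 0.041), and its call was kept in only 1 of the 6 fits that left out a library, with adjusted p up to 0.148 without shCREBBP.572 replicate 1.

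Promoters of interferon members that fell are shown because they carry that element. The sequences are from RefSeq on GRCh38.p14, a later build than the hg19 of the table, and each promoter window spans 250 bases before to 50 after a gene's start. The motif searched was GAAA, any 2 bases and GAAA again, on both strands, so that a match on the other strand reads TTTC, 2 bases and TTTC. Overlapping matches were kept. The matches within each stretch shown are in capitals, 1 further match in the IFIT5 window and 1 in the IFITM1 window lie outside the stretch, and the sequences run 5′ to 3′ on the gene's strand.
BST2 (chr19:17405720-17405785, minus strand): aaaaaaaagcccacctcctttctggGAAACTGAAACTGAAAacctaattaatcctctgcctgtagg
ISG15 (chr1:1013359-1013424, plus strand): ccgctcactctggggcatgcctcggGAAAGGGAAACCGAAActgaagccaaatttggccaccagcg
IFI6 (chr1:27672251-27672373, minus strand): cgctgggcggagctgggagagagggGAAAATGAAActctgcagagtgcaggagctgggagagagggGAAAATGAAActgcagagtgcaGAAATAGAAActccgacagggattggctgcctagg
IFIT3 (chr10:89332410-89332512, plus strand): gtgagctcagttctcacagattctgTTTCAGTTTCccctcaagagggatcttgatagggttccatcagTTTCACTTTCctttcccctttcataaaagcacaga
IFIT5 (chr10:89414498-89414567, plus strand): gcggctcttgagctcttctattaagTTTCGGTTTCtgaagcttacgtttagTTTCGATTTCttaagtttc
IFITM1 (chr11:313975-314034, plus strand): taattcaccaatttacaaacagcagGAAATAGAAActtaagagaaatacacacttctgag
Of the 33 members, 25 were matched to 31 promoters, of which 16 held the motif (51.6%), against 3.57% of all 35116 promoters in the table. Of the 25 matched members 14 had a promoter with it, and of the 14 matched members that fell, 11 did. The others with it, IFI44, IFI44L and PARP9, were not called. Besides BST2 and IFITM1, the genes shown, chosen for these matches, were low in both groups or moderate in level. ISG15, a ubiquitin-like modifier, was at 11.4, 8.81 and 7.22 FPKM with shCREBBP.572, against 18.6, 12.8 and 15.4 FPKM with scramble (-0.72 ± 0.16, limma adjusted p = 0.00851). IFIT5, which binds viral RNA, was at 4.71, 4.83 and 4.28 FPKM with shCREBBP.572, against 7.61, 8.57 and 8.79 FPKM with scramble (-0.73 ± 0.10, limma adjusted p = 3.7e-04). IFIT3, a partner of the other IFIT proteins, was at 0.481, 0.714 and 0.423 FPKM with shCREBBP.572, against 1.75, 1.48 and 1.64 FPKM with scramble (-0.77 ± 0.17, limma adjusted p = 0.00941). IFI6, an antiviral membrane protein, was at 1.40, 1.27 and 1.8 FPKM with shCREBBP.572, against 5.01, 2.76 and 3.61 FPKM with scramble (-0.92 ± 0.22, limma adjusted p = 0.0122). In each of them the groups did not overlap. The presence of the letters is a description of the promoters and does not show binding.

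Relative to the mean of the other 2 hairpins, 27 of 33 interferon members were lower and 2 higher (median -0.93), where 16.8% of all rows were lower and 18.6% higher. The list's median was -0.01 for shCREBBP.1027 minus scramble and 0.82 for shCREBBP.3753 minus scramble, with the same scramble libraries in each. The count of lower members was 19 of 22 with a mean of at least 5 FPKM. BST2 averaged 2.92 FPKM with shCREBBP.572, 8.46 FPKM with shCREBBP.1027, 31.9 FPKM with shCREBBP.3753 and 7.61 FPKM with scramble. Its difference to the other hairpins was -2.17 ± 0.11 (limma adjusted p = 3.6e-07). LGALS3BP, a secreted galectin-binding protein that interferon can induce (chromosome 17, 76967276 to 76976061), averaged 1.41 FPKM with shCREBBP.572, 3.25 FPKM with shCREBBP.1027, 39.7 FPKM with shCREBBP.3753 and 3.03 FPKM with scramble, a difference of -2.46 ± 0.10 to the other hairpins (limma adjusted p = 7.5e-08).

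Most cholesterol synthesis genes fell. The pathway builds sterols out of acetyl-CoA through mevalonate and squalene, and the factor SREBF2 switches its genes on when sterol in the endoplasmic reticulum is low. Of 25 tested members 18 fell and none rose, with a median of -0.56 (19 lower and 1 higher without scramble replicate 1). At the start of the pathway, HMGCS1, which makes HMG-CoA (chromosome 5, 43287572 to 43313614), was at 14.8, 13.0 and 15 FPKM with shCREBBP.572, against 37.2, 45.8 and 43.6 FPKM with scramble (-1.50 ± 0.10, limma adjusted p = 2.9e-06). MVD, which makes isopentenyl pyrophosphate (chromosome 16, 88718348 to 88729539), was at 7.70, 7.98 and 6.11 FPKM with shCREBBP.572, against 18.5, 22.6 and 26.9 FPKM with scramble (-1.51 ± 0.23, limma adjusted p = 0.00109). FDFT1, which commits the pathway to squalene (chromosome 8, 11653082 to 11696818), was at 24.6, 24.0 and 25.1 FPKM with shCREBBP.572, against 59.7, 72.6 and 83.1 FPKM with scramble (-1.50 ± 0.11, limma adjusted p = 7.2e-06). Every scramble library was above every shCREBBP.572 library in these 3 genes.

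The members that follow were chosen after their values were seen, to show the rest of the route. IDI1, the isomerase after MVD, was at 13.6, 13.2 and 10.9 FPKM with shCREBBP.572, against 33.5, 39.1 and 38.2 FPKM with scramble (-1.48 ± 0.11, limma adjusted p = 7.1e-06). SQLE, the epoxidase of squalene, was at 22.6, 18.7 and 24.4 FPKM with shCREBBP.572, against 39.4, 45.8 and 48.7 FPKM with scramble (-1.0 ± 0.10, limma adjusted p = 8.0e-05). DHCR7, the last reductase, was at 12.5, 9.69 and 11.4 FPKM with shCREBBP.572, against 21.3, 25.1 and 26.4 FPKM with scramble (-1.05 ± 0.11, limma adjusted p = 1.0e-04). These enzymes act early, in the middle and at the end of the route, and each was lower in all 3 shCREBBP.572 libraries. INSIG1, which holds SREBF2 back, was at 29.2, 26.5 and 29.3 FPKM with shCREBBP.572, against 48.8, 70.5 and 69.5 FPKM with scramble (-1.11 ± 0.12, limma adjusted p = 1.2e-04). SREBF2 itself was at 40.8, 43.2 and 42.5 FPKM with shCREBBP.572, against 68.7, 58.6 and 58.9 FPKM with scramble (-0.54 ± 0.08, limma adjusted p = 8.9e-04). None of these genes overlapped between the groups.

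Of the 27 promoters matched to 20 of the members, 1 held a sterol element of the form TCACNCCAC (3.7%, against 1.13% of all promoters), that of SREBF2, and it is shown with the match in capitals.
SREBF2 (chr22:41832947-41833005, plus strand): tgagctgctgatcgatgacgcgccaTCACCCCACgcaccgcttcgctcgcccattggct
For the other promoters this says only that these letters are not in the window searched.

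The fall of the sterol genes was also seen against the other hairpins. Of the 25 members 18 were lower with shCREBBP.572 than with the mean of shCREBBP.1027 and shCREBBP.3753 and none higher (median -0.65). Over 21 alternative fits 16 to 18 were lower. In this comparison 16.8% of all rows were lower and 18.6% higher. MVD differed by -2.09 ± 0.20 (limma adjusted p = 1.9e-05) and FDFT1 by -1.50 ± 0.09 (limma adjusted p = 1.1e-06). The list's median was 0.01 for shCREBBP.1027 minus scramble and -0.12 for shCREBBP.3753 minus scramble; these comparisons share the scramble libraries. Fatty acid synthesis, driven by the related factor SREBF1, moved less uniformly: 6 of 16 members fell and 1 rose (median -0.12; 7, 1 and -0.18 without scramble replicate 1). SCD, which desaturates stearate (chromosome 10, 102106772 to 102124588), was at 62.2, 55.8 and 56.7 FPKM with shCREBBP.572, against 120, 116 and 117 FPKM with scramble (-1.0 ± 0.07, limma adjusted p = 3.7e-06), ELOVL6, an elongase, fell by 1.19 ± 0.10 in 1 of its 2 rows, and THRSP, a lipogenic regulator, fell by 1.09 ± 0.23. GPAM, which starts glycerolipid synthesis, rose by 0.46 ± 0.09 (limma adjusted p = 0.00473). Against the other hairpins 4 of the 16 fatty acid members were lower and 6 higher, beside 16.8% and 18.6% of all rows.

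**Figure D4:**
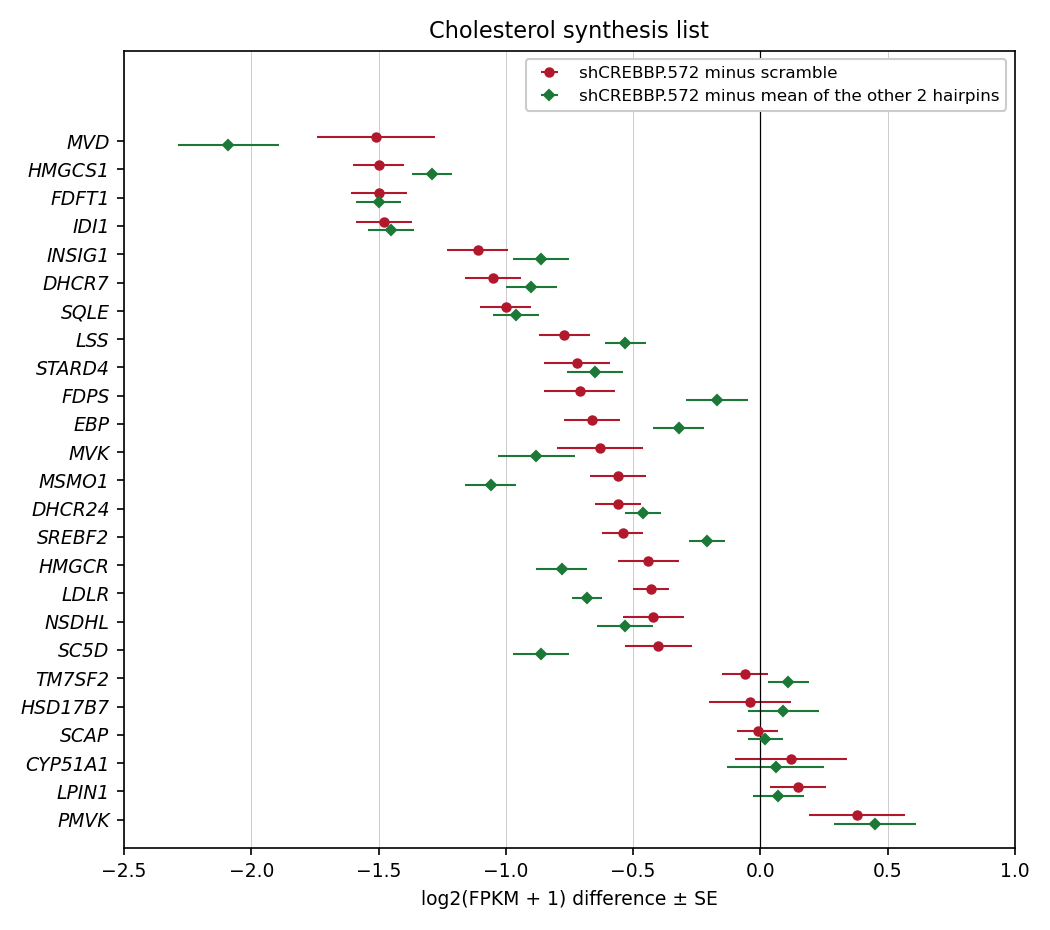
Difference in log2(FPKM + 1) with its SE for the 25 tested members of the cholesterol synthesis list: circles are shCREBBP.572 minus scramble and diamonds shCREBBP.572 minus the mean of the other 2 hairpins. MVD, HMGCS1, FDFT1 and IDI1 lie near -1.5 against scramble, and the 7 members at the bottom, SC5D to PMVK, were not called against scramble.

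Many genes of the amino acid response rose. ATF4 is the transcription factor that cells translate when amino acids or folding capacity run short, and 13 of its 27 tested list members rose and 1 fell (median 0.34; 15 and 2 without scramble replicate 1). SLC7A11, the cystine transporter, in a row shared with its antisense gene (chromosome 4, 138948577 to 139163635), was at 12.1, 14.5 and 13.2 FPKM with shCREBBP.572, against 7.09, 5.51 and 6.43 FPKM with scramble (0.96 ± 0.10, limma adjusted p = 6.0e-05). Another tested row that shares a name with it was not called. PHGDH, which opens serine synthesis (chromosome 1, 120254419 to 120286849), was at 135, 143 and 140 FPKM with shCREBBP.572, against 76.2, 81.2 and 80.6 FPKM with scramble (0.80 ± 0.06, limma adjusted p = 7.9e-06). SESN2, a leucine sensor that restrains mTORC1 (chromosome 1, 28585963 to 28609192), was at 17.8, 16.2 and 14.8 FPKM with shCREBBP.572, against 7.96, 8.94 and 10.3 FPKM with scramble (0.78 ± 0.11, limma adjusted p = 5.6e-04). The groups were apart in all of them. Named after inspection of their values, ATF4 was at 555, 534 and 579 FPKM with shCREBBP.572, against 299, 407 and 429 FPKM with scramble (0.57 ± 0.12, limma adjusted p = 0.00696). ASNS, asparagine synthetase, was at 72.9, 66.4 and 67.7 FPKM with shCREBBP.572, against 36.5, 43.1 and 45.3 FPKM with scramble (0.72 ± 0.08, limma adjusted p = 1.6e-04). ALDH1L2, a mitochondrial folate enzyme, was the member that fell (-0.56 ± 0.13, limma adjusted p = 0.0102).

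In the same libraries 24 of 41 folding and secretory genes of the endoplasmic reticulum fell and none rose (median -0.45; 28 lower without scramble replicate 1). DNAJB9, a co-chaperone of BiP (chromosome 7, 108201734 to 108279453), was at 10.9, 5.21 and 4.05 FPKM with shCREBBP.572, against 14.5, 20.1 and 17 FPKM with scramble (-1.33 ± 0.24, limma adjusted p = 0.00301). SYVN1, the ubiquitin ligase of protein disposal (chromosome 11, 64888099 to 64902003), was at 10.7, 7.99 and 6.96 FPKM with shCREBBP.572, against 27.6, 17.8 and 13.5 FPKM with scramble (-1.07 ± 0.22, limma adjusted p = 0.00517). The groups did not overlap, although scramble replicate 1 was high for SYVN1 and shCREBBP.572 replicate 1 high for DNAJB9. FKBP11, a folding enzyme of secretory cells (chromosome 12, 49297893 to 49320113), was at 24.3, 21.3 and 23.9 FPKM with shCREBBP.572, against 45.0, 43.8 and 45.8 FPKM with scramble (-0.93 ± 0.10, limma adjusted p = 1.1e-04). Plasma cell genes, a list that shares FKBP11, fell in 13 of 24 members and rose in none (median -0.39), with 16 lower without scramble replicate 1 and 8 without shCREBBP.572 replicate 3. IGJ, the joining chain of secreted antibodies (chromosome 4, 71515900 to 71532885), was at 467, 442 and 523 FPKM with shCREBBP.572, against 852, 1220 and 1293 FPKM with scramble (-1.21 ± 0.14, limma adjusted p = 1.8e-04). CREB3L2, a membrane-bound transcription factor of secretory cells, was at 7.92, 6.92 and 5.88 FPKM with shCREBBP.572, against 22.3, 9.86 and 9.54 FPKM with scramble (-0.82 ± 0.25, limma adjusted p = 0.0433), and its call was kept in 3 of 6 fits that left out a library (adjusted p up to 0.133 without shCREBBP.572 replicate 3). The plasma cell regulators IRF4 and PRDM1, named after inspection of their values, were not called. IRF4 was at 90.8, 91.1 and 94.2 FPKM with shCREBBP.572, against 96.6, 101 and 105 FPKM with scramble (-0.13 ± 0.06, limma adjusted p = 0.148). PRDM1 was at 3.64, 2.93 and 2.78 FPKM with shCREBBP.572, against 4.09, 4.33 and 3.46 FPKM with scramble (-0.27 ± 0.13, limma adjusted p = 0.175).

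Cell cycle genes were called against scramble in shares not far from those over all rows, 8.99% higher and 10.8% lower. Of 33 genes of G1/S and replication, 3 rose and 3 fell (median 0.01), and of 34 genes of G2/M and mitosis, 5 rose and 3 fell (median 0.07). Without scramble replicate 1 the counts were 1 higher and 7 lower in the first list and 6 and 6 in the second, the medians were -0.04 and -0.07, so that both turned sign, and over all fits that left out a library the counts of risen members were 0 to 3 and 0 to 6. No G1/S member was called higher without shCREBBP.572 replicate 2, and no G2/M member without its replicate 1 or 3. The G2/M count was 1 without shCREBBP.572 replicate 2 and 2 without scramble replicate 3. The G1/S count of fallen members was 1 without shCREBBP.572 replicate 1 or 3 or scramble replicate 2 or 3. The clearest changes were falls of single genes. RRM2, the small subunit of ribonucleotide reductase (chromosome 2, 10262638 to 10277975), was at 52.6, 51.2 and 55.9 FPKM with shCREBBP.572, against 108, 127 and 115 FPKM with scramble (-1.11 ± 0.08, limma adjusted p = 6.1e-06). AURKA, the spindle kinase Aurora A (chromosome 20, 54944445 to 54967351), was at 26.5, 27.3 and 29.2 FPKM with shCREBBP.572, against 44.0, 51.7 and 55.5 FPKM with scramble (-0.84 ± 0.11, limma adjusted p = 3.1e-04). Both calls were kept whichever library was left out. UBE2C, the ubiquitin carrier of the anaphase-promoting complex, fell by 0.49 ± 0.11. PLK1, a mitotic kinase, fell by 0.30 ± 0.07, called in 5 of 6 such fits (adjusted p = 0.0501 without shCREBBP.572 replicate 3).

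The rises were smaller, and most were lost when 1 library was left out. CCNE1, cyclin E1 (chromosome 19, 30302901 to 30315215), was at 16.3, 18.5 and 17.3 FPKM with shCREBBP.572, against 10.0, 13.2 and 14.3 FPKM with scramble (0.45 ± 0.12, limma adjusted p = 0.0215), called in 4 of 6 such fits, with an adjusted p of up to 0.0756 without shCREBBP.572 replicate 2. The row of E2F1, the activator of S-phase genes, with NECAB3 (chromosome 20, 32244829 to 32274210) was at 31.3, 34.5 and 28.5 FPKM with shCREBBP.572, against 24.1, 24.4 and 26.4 FPKM with scramble (0.32 ± 0.10, limma adjusted p = 0.041), called in 2 of 6. RFC4, of the clamp loader, rose by 0.41 ± 0.12, called in 2 of 6, and CENPF, a kinetochore protein, by 0.37 ± 0.10, called in 3 of 6. NUF2, also of the kinetochore (0.48 ± 0.14), and DLGAP5, a spindle protein (0.37 ± 0.12), were called in 1 of 6 each. TK1, thymidine kinase, fell by 0.33 ± 0.08, called in 2 of 6, and MCM4, of the replicative helicase, by 0.20 ± 0.06, called in 1 of 6. The highest adjusted p of E2F1 came without shCREBBP.572 replicate 2 (0.142) and that of MCM4 without shCREBBP.572 replicate 1 (0.152). For RFC4 (0.137), CENPF (0.0836), NUF2 (0.107), DLGAP5 (0.125) and TK1 (0.0682) it came without shCREBBP.572 replicate 3.

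Against the other hairpins the same lists stood higher. Of the 33 G1/S members 29 were higher with shCREBBP.572 than with the mean of shCREBBP.1027 and shCREBBP.3753 and none lower (median 0.62), and of the 34 G2/M members 29 were higher and 1 lower (median 0.52), where 18.6% of all rows were higher. Replication-dependent histones, whose RNAs lack a poly(A) tail and accumulate in S phase, were higher in 26 of 28 members and lower in none (median 0.96). Over 21 alternative fits the counts of higher members were 28 to 30, 23 to 32 and 26 in each. Against scramble none of the histones rose and 2 fell, HIST1H1D (-0.69 ± 0.12) and HIST4H4 (-0.60 ± 0.16), the second called in only 2 of 6 fits that left out a library (adjusted p up to 0.084 without scramble replicate 3). The count of fallen histones was 5 without scramble replicate 1, and 1 without shCREBBP.572 replicate 1 or 3 or scramble replicate 2 or 3. E2F1 differed by 1.12 ± 0.08 from the other hairpins (limma adjusted p = 3.8e-06). Named after inspection of its values, HIST1H1B, a linker histone, averaged 2610 FPKM with shCREBBP.572, 1181 FPKM with shCREBBP.1027, 997 FPKM with shCREBBP.3753 and 2262 FPKM with scramble. MCM2, of the replicative helicase, differed by 1.09 ± 0.06 (limma adjusted p = 4.1e-07) from the other hairpins and by 0.08 ± 0.07 from scramble (limma adjusted p = 0.446). For G1/S genes the list medians relative to scramble were -0.66 with shCREBBP.1027 and -0.59 with shCREBBP.3753. For G2/M genes they were -0.53 and -0.46, and for histones -0.84 and -0.98. With shCREBBP.572 the median of the histones was 0.13. The same scramble libraries entered each comparison.

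**Figure D5:**
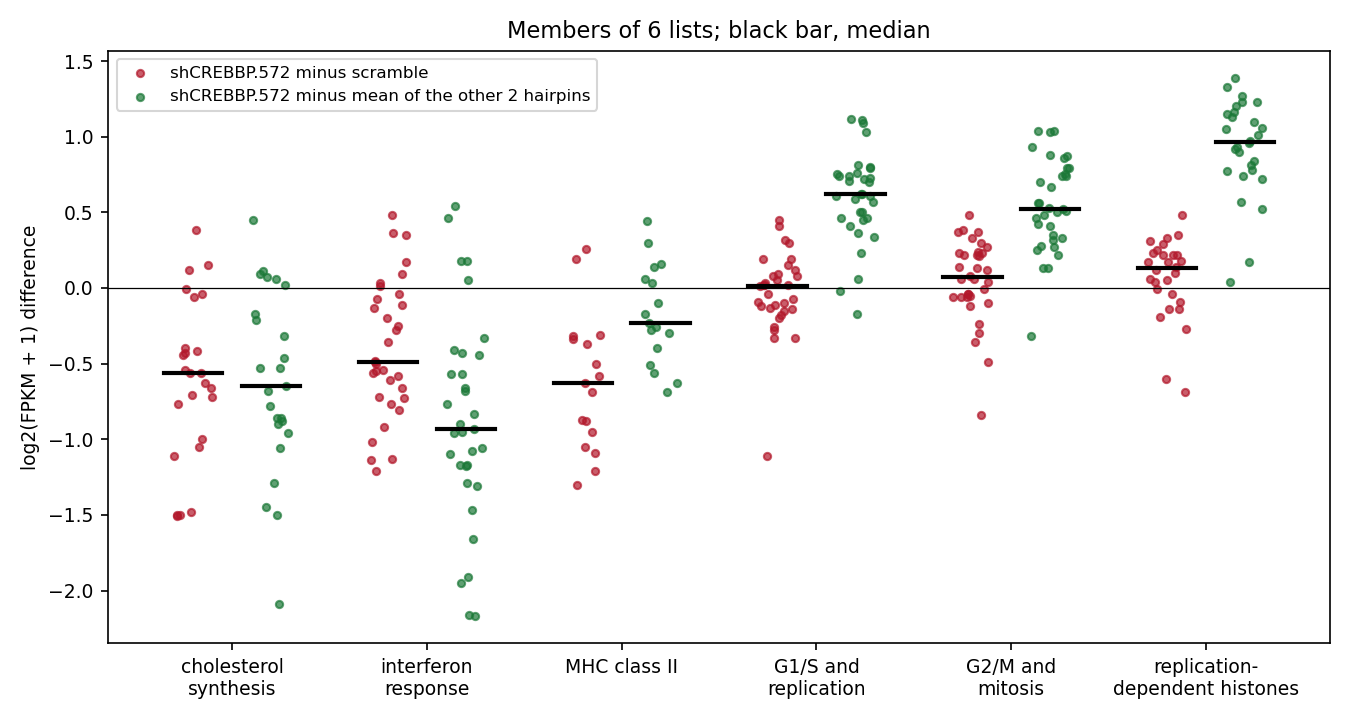
Difference in log2(FPKM + 1) of each tested member (points, spread sideways for clarity) of 6 lists, shCREBBP.572 minus scramble on the left of each pair and shCREBBP.572 minus the mean of the other 2 hairpins on the right; black bars are medians. Cholesterol and interferon members are low in both comparisons, whereas cell cycle and histone members lie around 0 against scramble and above 0 against the other hairpins.

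Metabolic and growth lists moved less. MYC and ribosome biogenesis genes fell in 5 of 27 members and rose in none (median -0.15), and without scramble replicate 1 the count was 15 lower and 1 higher and the median -0.29. DDX21, a nucleolar helicase (chromosome 10, 70714946 to 70745408), was at 112, 111 and 127 FPKM with shCREBBP.572, against 202, 268 and 263 FPKM with scramble (-1.05 ± 0.11, limma adjusted p = 6.8e-05). LDHA, lactate dehydrogenase, was at 900, 811 and 962 FPKM with shCREBBP.572, against 1093, 1324 and 1349 FPKM with scramble (-0.49 ± 0.11, limma adjusted p = 0.00746), and UTP20, of the small ribosomal subunit's assembly, fell by 0.46 ± 0.08. Chosen after its values were seen, MYC was at 131, 136 and 129 FPKM with shCREBBP.572, against 179, 183 and 171 FPKM with scramble (-0.43 ± 0.07, limma adjusted p = 0.00133). CACGTG, the E-box that MYC can bind, stood in 12 of 27 promoters of the 20 matched members (44.4%), against 7.26% of all promoters, searched on both strands. Of 31 glycolysis and hypoxia genes 8 fell and 1 rose (median -0.24; 16 and 2 without scramble replicate 1, and 2 risen ones also without shCREBBP.572 replicate 2). CA9, the carbonic anhydrase of hypoxic cells (chromosome 9, 35673915 to 35681154), was at 1.43, 0.897 and 0.812 FPKM with shCREBBP.572, against 2.52, 4.39 and 4.91 FPKM with scramble (-1.25 ± 0.24, limma adjusted p = 0.00367). PFKFB4, a regulator of glycolysis, fell by 1.29 ± 0.20 and ALDOC, an aldolase, by 0.93 ± 0.14, while PFKL, the liver-type phosphofructokinase, rose by 0.42 ± 0.08.

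Signal-dependent genes were lower in part. Of 29 immediate early and CREB target genes, a class whose factors recruit CREBBP, 11 fell and none rose (median -0.33), with the same counts without scramble replicate 1. RGS1 was the largest of these falls. KLF2, a factor of lymphocyte quiescence and trafficking (chromosome 19, 16435649 to 16439661), was at 2.08, 0.923 and 0.876 FPKM with shCREBBP.572, against 8.23, 6.19 and 5.67 FPKM with scramble (-1.77 ± 0.22, limma adjusted p = 2.4e-04). NR4A1, an orphan nuclear receptor that antigen receptors induce (chromosome 12, 52416616 to 52453343), was at 1.09, 0.533 and 1.21 FPKM with shCREBBP.572, against 3.28, 4.17 and 3.83 FPKM with scramble (-1.31 ± 0.20, limma adjusted p = 0.00113). The full CREB element TGACGTCA stood in 5 of 47 promoters of the 25 matched members (10.6%), against 1.85% of all promoters. Of the 25 matched members 4 had it, and of the 10 that fell, 2 did. Of 25 NF-kappaB targets 3 rose and 4 fell, shares near those over all rows (median -0.13; 3, 6 and -0.05 without scramble replicate 1). PLEK, the leukocyte protein pleckstrin (chromosome 2, 68592229 to 68624963), rose and was at 59.3, 52.8 and 61.6 FPKM with shCREBBP.572, against 23.6, 26.1 and 25 FPKM with scramble (1.18 ± 0.09, limma adjusted p = 9.6e-06). NFKB2 rose by 0.52 ± 0.09 and the inhibitor NFKBIA by 0.37 ± 0.11, the second call kept in 1 of 6 fits that left out a library (adjusted p up to 0.0953 without shCREBBP.572 replicate 3), and CD83, PTGER4 and the deubiquitinating enzyme TNFAIP3 fell by 0.56 ± 0.13, 0.45 ± 0.10 and 0.45 ± 0.10. PTGER4 had 1 other tested row, which was not called.

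Of 25 genes repressed by BCL6, 7 fell and 2 rose (median -0.14), and of 27 p53 targets 7 fell and 6 rose (median -0.18). Without scramble replicate 1, 9 and 2 of the first list and 10 and 5 of the second did so. TLR7, the endosomal receptor for single-stranded RNA (chromosome X, 12885202 to 12908480), was at 1.55, 1.31 and 1.49 FPKM with shCREBBP.572, against 4.04, 5.08 and 4.92 FPKM with scramble (-1.21 ± 0.13, limma adjusted p = 1.0e-04). CDKN1A, the cell cycle inhibitor p21 that is on both lists (chromosome 6, 36644237 to 36655116), was at 15.5, 15.1 and 12.6 FPKM with shCREBBP.572, against 23.9, 29.6 and 29.7 FPKM with scramble (-0.90 ± 0.11, limma adjusted p = 2.2e-04), and ARID3A, a B-cell DNA-binding factor, fell by 1.01 ± 0.10. CYFIP2, of the actin-regulating WAVE complex (chromosome 5, 156693090 to 156822627), was at 23.2, 20.7 and 21.8 FPKM with shCREBBP.572, against 57.2, 58.1 and 58.1 FPKM with scramble (-1.36 ± 0.06, limma adjusted p = 3.0e-07). MDM2, the ligase that degrades p53, was at 31.4, 31.3 and 32.4 FPKM with shCREBBP.572, against 48.5, 52.9 and 52.2 FPKM with scramble (-0.67 ± 0.07, limma adjusted p = 6.0e-05). Among p53 targets BTG2 and SESN2 rose while CDKN1A and MDM2 fell. TP53I3, an oxidoreductase, rose by 0.74 ± 0.19 in 1 of its 2 rows, a call lost without shCREBBP.572 replicate 3 (adjusted p = 0.0647). CDKN1B, the inhibitor p27, rose by 0.50 ± 0.14 (limma adjusted p = 0.0304), called in 3 of 6 fits that left out a library (adjusted p up to 0.0803 without shCREBBP.572 replicate 3). BCL2, the survival gene, rose by 0.22 ± 0.07 (limma adjusted p = 0.0376), called in 1 of 6 (up to 0.123 without shCREBBP.572 replicate 1). Without shCREBBP.572 replicate 1, 2 or 3 none of the BCL6-repressed genes rose, and without scramble replicate 2 only 1 did.

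Of 37 acetyltransferases and their partners 5 rose and none fell (median 0.12; 8 and 2 without scramble replicate 1). The share that rose was not far from the 8.99% over all rows. Without shCREBBP.572 replicate 3 the count of risen members was 2, and without its replicate 1 or 2 it was 3. TADA3, of the SAGA and ATAC complexes (chromosome 3, 9821648 to 9878202), was at 39.3, 39.5 and 41.5 FPKM with shCREBBP.572, against 24.0, 28.3 and 29.9 FPKM with scramble (0.54 ± 0.08, limma adjusted p = 0.00101), and KAT2B, the acetyltransferase PCAF, rose by 0.42 ± 0.12 (limma adjusted p = 0.0329), called in 3 of 6 fits that left out a library (adjusted p up to 0.107 without shCREBBP.572 replicate 3). In the BCL2 family 4 of 15 members rose and 2 fell (median 0.07; 3, 2 and 0.01 without scramble replicate 1), but none rose without shCREBBP.572 replicate 1 or 3, 1 without its replicate 2 and 2 without scramble replicate 2. BIK, a BH3-only death gene (chromosome 22, 43506727 to 43526613), was at 23, 23.2 and 18.1 FPKM with shCREBBP.572, against 33.6, 40.3 and 41.5 FPKM with scramble (-0.82 ± 0.11, limma adjusted p = 4.7e-04), and HRK, of the same class, fell by 0.52 ± 0.12. PMAIP1, which encodes NOXA, rose by 0.32 ± 0.09 and BCL2L13 by 0.31 ± 0.09, called in 4 and 2 of 6 such fits (adjusted p up to 0.102 without shCREBBP.572 replicate 3 and replicate 2). The row shared by BCL2L11 and ACOXL rose by 0.52 ± 0.16, but its groups overlapped and it was called in 1 of 6 (up to 0.127 without scramble replicate 3). The 2 other tested rows that share a name with it were not called.

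Actin and adhesion genes fell in 15 of 41 members and rose in 3 (median -0.09; 18, 3 and -0.22 without scramble replicate 1). CTTN was the largest rise, with TPM4, a tropomyosin, at 0.50 ± 0.11 and CORO1B, a coronin, at 0.41 ± 0.09. CORO1B had 1 other tested row, which was not called. ITGB1, the integrin beta-1 chain (chromosome 10, 33187210 to 33247293), was at 19.6, 15.2 and 21.5 FPKM with shCREBBP.572, against 43.0, 56.5 and 54.2 FPKM with scramble (-1.41 ± 0.13, limma adjusted p = 2.6e-05). LSP1, a leukocyte actin-binding protein (chromosome 11, 1874200 to 1913493), was at 111, 108 and 113 FPKM with shCREBBP.572, against 180, 219 and 233 FPKM with scramble (-0.91 ± 0.09, limma adjusted p = 5.5e-05). WASF1, of the WAVE complex, fell by 0.98 ± 0.13. Lysosome and autophagy genes fell in 10 of 33 members and rose in 2 (median -0.13; 6 fell without scramble replicate 3, and 14 fell and 2 rose without scramble replicate 1, with a median of -0.20). MAP1LC3B, the autophagosome protein LC3B (chromosome 16, 87425801 to 87439501), was at 10.7, 9.66 and 11.6 FPKM with shCREBBP.572, against 20.5, 17.2 and 19.4 FPKM with scramble (-0.78 ± 0.10, limma adjusted p = 2.4e-04), the cargo receptor SQSTM1 fell by 0.73 ± 0.14 and the acid lipase LIPA by 0.61 ± 0.11, while ATG16L1 rose by 0.59 ± 0.12 and the factor TFE3 by 0.51 ± 0.09.

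Stress lists were mixed or little changed. In heat shock and proteasome 6 of 39 members fell and none rose (median -0.06), and 10 fell and 1 rose without scramble replicate 1 (median -0.15). It was led by HSPB1, the small heat shock protein HSP27 (chromosome 7, 75931875 to 75933614), at 138, 156 and 121 FPKM with shCREBBP.572, against 283, 300 and 334 FPKM with scramble (-1.14 ± 0.11, limma adjusted p = 4.1e-05). FKBP4 fell by 0.48 ± 0.10 and BAG3 by 0.47 ± 0.13, the second called in 2 of 6 fits that left out a library (adjusted p up to 0.11 without shCREBBP.572 replicate 2). Metallothioneins and oxidative stress genes rose in 6 of 31 members and fell in 5. The count of fallen members was 9 without scramble replicate 1 and 1 or 2 without any other library. MT1F, a zinc-binding metallothionein (chromosome 16, 56691855 to 56693215), was at 4.72, 6.14 and 1.48 FPKM with shCREBBP.572, against 0, 0 and 0.452 FPKM with scramble (2.04 ± 0.38, limma adjusted p = 0.00305), where the 0 values are as listed. MT2A was at 43.2, 40.7 and 25.3 FPKM with shCREBBP.572, against 10.8, 22.3 and 24.2 FPKM with scramble (0.94 ± 0.28, limma adjusted p = 0.0385), called in 3 of 6 (up to 0.13 without shCREBBP.572 replicate 1). SLC39A10, a zinc importer, fell by 0.66 ± 0.13, and PRDX2 and SOD2, which remove peroxide and superoxide, by 0.44 ± 0.12 and, with overlapping groups, 0.36 ± 0.11, called in 1 of 6 each (up to 0.0841 without shCREBBP.572 replicate 3 and 0.13 without scramble replicate 2). None of the 58 ribosomal protein rows was called (median 0.06; the smallest p was that of RPL5, adjusted p = 0.158), and 0 rose and 4 fell without scramble replicate 1, where the median turned to -0.10. Of 49 nuclear genes of oxidative phosphorylation 1 rose, UQCRB (0.38 ± 0.12), called in 2 of 6 fits that left out a library (adjusted p up to 0.125 without shCREBBP.572 replicate 3). Without scramble replicate 1 none of them rose and 4 fell, and 5 rose without scramble replicate 2 and 4 without replicate 3.

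Most markers of other cell types were low, with PRF1 and ZAP70 as exceptions, and most markers of B cells were present. The summed level of 11 B-cell markers was 742 to 763 FPKM with shCREBBP.572 and 1108 to 1482 FPKM with scramble, and 6 of 10 tested ones fell and none rose (7 fell without scramble replicate 1). CD74 carried most of the sum and of the gap between the groups. Of these 11, CD22 and CD37 were under 1 FPKM in all 6 libraries. Of 5 tested T and NK cell markers 2 rose and none fell (median -0.09; 1, none and 0.13 without scramble replicate 1). The 21 T and NK cell markers in the table summed to 87.8 to 94.6 FPKM with shCREBBP.572 and 66.8 to 76.0 FPKM with scramble. CD3D, GNLY, GZMA, GZMB and KLRB1 were at 0 in all 6 libraries, and 16 of the 21 were under 1 FPKM. Most of the sum was PRF1, the pore protein perforin (chromosome 10, 72356457 to 72362583), at 62.6, 54.7 and 58.3 FPKM with shCREBBP.572, against 30.3, 34.8 and 38.6 FPKM with scramble (0.75 ± 0.09, limma adjusted p = 1.8e-04), and the kinase ZAP70, which was not called. The row of the NK receptors KLRK1 and KLRC4 rose by 0.60 ± 0.17 (limma adjusted p = 0.0291), called in 2 of 6 fits that left out a library (adjusted p up to 0.103 without shCREBBP.572 replicate 2). The 20 myeloid markers summed to 3.03 to 4.74 FPKM with shCREBBP.572 and 1.91 to 5.01 FPKM with scramble. The 19 fibroblast and epithelial markers summed to 2.90 to 4.76 FPKM with shCREBBP.572 and 3.70 to 11.7 FPKM with scramble, where COL1A1 stood at 6.85 FPKM in scramble replicate 3 and at 0 in the other 5 libraries. None of the tested members of the myeloid or fibroblast and epithelial lists was called, the smallest p being those of CD68 (adjusted p = 0.662) and ACTA2 (adjusted p = 0.0985). What part these marker levels have in the other results was not tested.

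The libraries with shCREBBP.572 also differed from those with the other 2 hairpins. Against the mean of shCREBBP.1027 and shCREBBP.3753, a comparison of 3 libraries with 6, 2188 rows were higher (18.6%) and 1971 lower (16.8%) of 11757. The rows that differed by at least 1 on the log2 scale, called or not, were 471 in this comparison and 451 in that with scramble. Among the largest differences upward, LDB3, a Z-disc scaffold protein (chromosome 10, 88426558 to 88495886), averaged 6.48 FPKM with shCREBBP.572, 0.390 FPKM with shCREBBP.1027, 2.01 FPKM with shCREBBP.3753 and 3.39 FPKM with scramble (1.86 ± 0.16 against the other hairpins, limma adjusted p = 8.1e-06). WDR34, of the dynein-2 motor (chromosome 9, 131314837 to 131419129), averaged 46.9 FPKM with shCREBBP.572, 9.29 FPKM with shCREBBP.1027, 18.8 FPKM with shCREBBP.3753 and 24.5 FPKM with scramble (1.74 ± 0.10, limma adjusted p = 4.3e-07). IL7R, the interleukin 7 receptor (chromosome 5, 35856953 to 35879799), averaged 39.6 FPKM with shCREBBP.572, 9.54 FPKM with shCREBBP.1027, 20.4 FPKM with shCREBBP.3753 and 35.4 FPKM with scramble (1.44 ± 0.07, limma adjusted p = 2.3e-07). WDR34 was thus highest with shCREBBP.572, whereas IL7R was not called against scramble (0.16 ± 0.08). CCDC74A (1.87 ± 0.13), the bridging factor MFGE8 (1.72 ± 0.10), the lipase gene LIPI (1.62 ± 0.39), BTBD2 (1.53 ± 0.08) and the repressor E2F7 (1.43 ± 0.10) were the others.

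The largest differences downward were those of SLC2A5 (-3.46 ± 0.13), FCRLA (-2.68 ± 0.09), LGALS3BP, RGS1 (-2.36 ± 0.19), VPREB1 (-2.34 ± 0.15), TWF1 (-2.32 ± 0.12), LY86 (-2.25 ± 0.23) and BST2. SLC2A5 averaged 3.02 FPKM with shCREBBP.572, 38.6 FPKM with shCREBBP.1027, 47.3 FPKM with shCREBBP.3753 and 22.8 FPKM with scramble. LY86, the MD-1 partner of the receptor RP105 on B cells (chromosome 6, 6346698 to 6655216), was at 2.12, 0.772 and 1.94 FPKM with shCREBBP.572, against 3.26, 8.05 and 6.50 FPKM with scramble. Several of the genes that led the comparison with scramble were not called against the other hairpins: CTTN differed by -0.07 ± 0.13 (limma adjusted p = 0.731) and PVRIG by -0.39 ± 0.18 (limma adjusted p = 0.112). SPIB was lower than the mean of the other hairpins by a difference of -0.60 ± 0.10 (limma adjusted p = 6.8e-04), with averages of 4.70 FPKM with shCREBBP.572, 3.79 FPKM with shCREBBP.1027, 14.8 FPKM with shCREBBP.3753 and 22.2 FPKM with scramble. MHC class II members were lower than with the other hairpins in 8 of 17 rows and higher in 1 (median -0.23), where 16.8% of all rows were lower and 18.6% higher. Relative to the same scramble libraries the list's median was -0.63 with shCREBBP.572, -0.81 with shCREBBP.1027 and -0.24 with shCREBBP.3753.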

How the data were processed

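Total RNA over 200 nt was sequenced after ribosomal depletion with a stranded protocol, per the labels' protocols, in 12 libraries of MD901 cells, 3 for each of 3 hairpins and for scramble. The authors deposited 1 table of 24181 assembled loci. Its unit is not stated in the table, and the deposited values were read as FPKM because the submitters' processing notes name Cufflinks. These notes also name CASAVA 1.8, TopHat2 and the hg19 build, without their roles. For the gene annotation and the use of strand, the sources used here give nothing. Whole reads could not be recovered, so depth is unknown and no counting interval can be given. One hairpin is named 1027 in one label and 11027 in another, and 1027 is used here. Assembly can merge neighbouring genes, so 504 tested rows carry several names, and 2002 share a name with another tested row.

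The deposited FPKM values were transformed to log2(FPKM + 1), and the 11757 rows averaging at least 1 FPKM were fitted with limma 3.58.1 in R 4.3.3 (means of the 4 groups, eBayes with a variance trend, Benjamini-Hochberg adjustment, threshold 0.05). All 4 groups entered, sharing 1 estimate of spread. A list member is the row of highest mean that carries its name. The fit was tested on simulated data. Summaries used Python 3.11.15, pandas 2.3.3 and numpy 2.4.6.

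Named are CREBBP and EP300, 15 rises and 15 falls (those of largest size, from called rows that have 1 gene name and no 0), up to 3 called members of each of 32 gene lists in each direction (the smallest p where none was called), and the 8 largest differences each way between shCREBBP.572 and the other hairpins. Others are said to be chosen after their values were seen. No called row listed at 0 in 1 whole group met the conditions on names. The members and lists were chosen with earlier results of these data known. Alternatives were another pseudocount, no filter, a mean of at least 5 FPKM, only the 6 libraries, quantile normalization, median-of-ratios scaling, a replicate block, no variance trend, robust eBayes, array weights, and each library left out. Motifs were searched in RefSeq promoters of GRCh38.p14, matched by symbol. Some single-gene results are not reported here.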

Additional observations from a re-analysis of the deposited data

Results flagged for a closer look

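The libraries with shCREBBP.572 differed from those with the other 2 hairpins by a test of that difference, in 2188 rows higher and 1971 rows lower (limma, adjusted p under 0.05). These differences include 29 of 33 G1/S, 29 of 34 G2/M and 26 of 28 histone list members above the other hairpins. Of all rows 18.6% were higher in that comparison. Relative to scramble the medians of these 3 lists were 0.01, 0.07 and 0.13 with shCREBBP.572. They were -0.66, -0.53 and -0.84 with shCREBBP.1027, and -0.59, -0.46 and -0.98 with shCREBBP.3753, against the same scramble libraries.

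In 9 named genes the difference to scramble was called one way with shCREBBP.572 and the other way with both other hairpins. Only named genes were searched, and such rows were not counted over all rows tested. SLC2A5, LDB3, WDR34, MFGE8 and E2F7 were among the genes named for a large difference to the other hairpins, which favours opposite directions. The comparisons share the scramble libraries and the values that follow are differences in log2(FPKM + 1) to scramble. SLC2A5 stood at -2.57 with shCREBBP.572, 0.75 with shCREBBP.1027 and 1.04 with shCREBBP.3753. MAP1LC3B stood at -0.78 with shCREBBP.572, 0.80 with shCREBBP.1027 and 0.52 with shCREBBP.3753. Tested against the mean of the other hairpins, they differed by -3.46 and -1.44. Among genes higher with shCREBBP.572, LDB3 stood at 0.77 with shCREBBP.572, -1.64 with shCREBBP.1027 and -0.53 with shCREBBP.3753. WDR34 stood at 0.91 with shCREBBP.572, -1.31 with shCREBBP.1027 and -0.36 with shCREBBP.3753, and MFGE8 at 0.44 with shCREBBP.572, -1.73 with shCREBBP.1027 and -0.84 with shCREBBP.3753. Against the other hairpins these differed by 1.86, 1.74 and 1.72. E2F7 stood at 0.70 with shCREBBP.572, -0.97 with shCREBBP.1027 and -0.49 with shCREBBP.3753, and PFKL at 0.42 with shCREBBP.572, -1.33 with shCREBBP.1027 and -0.52 with shCREBBP.3753. E2F1 stood at 0.32 with shCREBBP.572, -0.82 with shCREBBP.1027 and -0.78 with shCREBBP.3753, and DLGAP5 at 0.37 with shCREBBP.572, -0.65 with shCREBBP.1027 and -0.46 with shCREBBP.3753. Their differences to the other hairpins were 1.43, 1.35, 1.12 and 0.93. The calls of E2F1, DLGAP5 and MFGE8 against scramble were each lost when 1 library was left out, with adjusted p up to 0.142 without shCREBBP.572 replicate 2, 0.125 without shCREBBP.572 replicate 3 and 0.0974 without shCREBBP.572 replicate 1.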

How the results depend on the processing

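The number of reads is not known, which limits what can be said of rows near 0. The cause of the changes below was not tested. Fitting only the 6 libraries leaves fewer libraries for the spread and leaves out the other hairpins, whose libraries were the most alike. That fit called 345 rows higher and 620 lower, and 4 MHC class I, 10 interferon, 3 MYC and 6 plasma cell members lower. In it 0 G1/S members were higher and 1 lower, and 1 G2/M member was higher and 1 lower. Array weights gave 2144 rows lower, 8 G1/S, 8 G2/M and 18 MYC members lower, and 0.11 for CREBBP. Median-of-ratios scaling gave 5 G2/M and 8 MYC members lower. G1/S members higher were 1 with no filter, 6 with quantile normalization and 1 with no variance trend, and G2/M members higher were 3, 9 and 3 in the same fits. With each library left out, rows higher than scramble were 679 to 1140 and rows lower 1000 to 1845. Members lower were 6 to 12 for MHC class I, 1 to 7 for G1/S, 2 to 6 for G2/M, 5 to 15 for MYC and 8 to 16 for plasma cells, and members higher were 0 to 3 for G1/S and 0 to 6 for G2/M. Members lower were 11 to 15 for MHC class II, 15 to 19 for cholesterol synthesis, 13 to 17 for interferon and 8 to 11 for germinal centre genes. CREBBP ranged over -0.37 to 0.19, EP300 over -0.08 to 0.64 and CD68 over -0.01 to 0.38. Genes chosen after inspection of their values, or for a promoter match alone, are not counted in what follows. Of 149 differences called in genes named by rule, 108 were called under each alternative in which they were fitted and 41 were lost under at least 1. Only 133 of them concern scramble and were fitted to the 6 libraries, and 125 passed the filter at 5 FPKM. The 6-library fit lost 40, the 13 listed above and BAG3, BCL2, BCL2L11, BCL2L13, CCNE1, CDKN1B, CENPF, CREB3L2, DLGAP5, E2F1, HIST4H4, IFI35, KAT2B, KLRK1, MCM4, MT2A, NFKBIA, OR2D3, PLK1, PMAIP1, PRDX2, RFC4, SOD2, TK1, TP53I3, UQCRB and ZNF826P. With the replicate number as a block, 1042 rows were higher and 1251 lower than scramble, and 2219 higher and 1961 lower than the other hairpins. In that block fit the members lower were 13 for MHC class II, 12 for MHC class I, 19 for cholesterol synthesis, 16 for interferon, 6 for MYC, 11 for plasma cells and 12 for germinal centre genes, and CREBBP was at -0.14. The block ended the calls of ZNF826P, E2F1, DLGAP5, CREB3L2 and MT2A. Same-numbered libraries of shCREBBP.572 and scramble did not deviate together (correlations of 0.069, -0.02 and 0.058). So few libraries cannot settle whether the numbers pair them, and the labels do not say.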
